A study of Mus musculus with 9 samples.

Results

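The interferon-stimulated genes analysed here are 42 mouse genes that cells turn on after exposure to interferon. They were chosen by symbol and found in the deposited counts by their Entrez identifiers, 42 of 42 among the 18755 genes counted. RNA was sequenced from primary tumors grown in a mammary fat pad of female BALB/c mice, 6 to 10 weeks old, from 4T1 cells, a murine breast cancer line that metastasizes to the lung. For 5 consecutive days from day 15 after injection, mice received BI 853520 (BI below) at 50 mg/kg or the vehicle, 0.5% Natrosol. BI 853520 is an oral inhibitor of focal adhesion kinase (FAK). The libraries are of 6 BI tumors and 3 vehicle tumors. The study kept only tumors whose RNA quality was sufficient, so these need not be all the mice treated. Both groups carried the same cell line. Each library came from a snap-frozen piece of 1 whole tumor, so that cancer cells, leukocytes and stroma were read together. Vehicle replicates are numbered 1 to 3 and BI replicates 4 to 9, after the sample numbers in the labels.

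Interferons reach the nucleus through the JAK-STAT pathway. Type I interferons (alpha and beta) bind the receptor IFNAR and activate the complex ISGF3, which contains STAT2 and IRF9 and binds the interferon-stimulated response element in promoters of the IFIT, OAS and MX genes. Type II interferon (gamma), made by T cells and NK cells, binds IFNGR, acts through the gamma-activated site, and induces IRF1, the guanylate-binding proteins (GBP) and the immunity-related GTPases (IRG). The programs overlap, and many genes answer to both. IFIT proteins bind foreign RNA, OAS enzymes make the second messenger that activates RNase L, and GBP and IRG proteins attack the vacuoles of intracellular pathogens.

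The families sit in gene clusters. On the mouse assembly mm9, which the authors used, Ifit2, Ifit3 and Ifit1 lie in this order on chromosome 19 between 34625184 and 34724499, Oas2, Oas3 and Oas1a on chromosome 5 between 121180342 and 121357536, and Gbp5, Gbp7, Gbp3 and Gbp2 on chromosome 3 between 142159864 and 142300972. Igtp and Irgm2 are neighbors on chromosome 11 between 58013058 and 58036282. All 42 were annotated as protein coding.

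The promoters were searched for the elements of both pathways. RefSeq promoters (assembly GRCm38.p6, from 250 bases before to 50 bases after the start) were matched for 32 of the 42 genes. Oas2, Gbp4, Iigp1, Dhx58, Zbp1, Usp18, Mx1, Mx2, Rtp4 and Parp14 had no entry. Some genes have several promoter entries, and a gene was counted if any of them held the element. A response element, spelled GAAANNGAAA and searched on both strands, was present in 21 of 32 genes (65.6%). Among all 27025 genes with a promoter it was present in 1079 (3.99%). A gamma-activated site, spelled TTCNNNGAA, was present in 12 of 32 (37.5%), against 9.55% of all genes with a promoter. Both were present in 8 of 32, against 0.614%, and the letters of the elements overlapped each other only in Ifitm3 and Bst2. Each of the 7 GBP and IRG genes with a promoter held a response element, and 4 of the 7 also held a gamma-activated site. Of the 7 IFIT and OAS genes with a promoter, 4 held a response element and 2 a gamma-activated site. These shares describe letters, not bound sites.

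The 150 bases before the start, the first listed where a gene has several, are shown for 5 genes. They are printed 5′ to 3′ on the strand of the gene, with the elements in capitals. Trim30a and Isg20 are shown because they passed the test below and hold an element. Ifit1, Gbp7 and Igtp were chosen after their values were seen, to show a type I promoter beside a GBP and an IRG promoter. Ifit1 (chr19:34640739-34640888 on the plus strand) has 2 response elements, which begin 104 and 85 bases upstream of the start. Gbp7 (chr3:142530186-142530335 on the plus strand) has 2 gamma-activated sites, 106 and 87 bases upstream, and a response element at 53. In Igtp (chr11:58199406-58199555 on the plus strand) a gamma-activated site at 45 bases is followed closely by a response element at 34. Trim30a (chr7:104465194-104465343 on the minus strand) has a response element at 36 bases, and Isg20 (chr7:78913274-78913423 on the plus strand) a gamma-activated site at 73 and no response element in this window. A response element reads TTTCNNTTTC where it lies on the other strand.
Ifit1: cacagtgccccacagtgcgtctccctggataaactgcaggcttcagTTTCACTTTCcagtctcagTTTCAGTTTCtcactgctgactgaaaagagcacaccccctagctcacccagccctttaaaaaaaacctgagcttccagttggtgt
Gbp7: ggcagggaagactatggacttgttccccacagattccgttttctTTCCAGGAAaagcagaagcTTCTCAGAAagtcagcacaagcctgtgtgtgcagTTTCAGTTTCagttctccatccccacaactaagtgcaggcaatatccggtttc
Igtp: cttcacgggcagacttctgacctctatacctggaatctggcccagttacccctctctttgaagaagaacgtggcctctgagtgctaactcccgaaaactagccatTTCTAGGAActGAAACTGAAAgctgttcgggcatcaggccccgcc
Trim30a: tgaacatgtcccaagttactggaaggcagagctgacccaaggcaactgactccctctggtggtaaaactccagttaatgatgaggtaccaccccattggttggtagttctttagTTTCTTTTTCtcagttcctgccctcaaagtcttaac
Isg20: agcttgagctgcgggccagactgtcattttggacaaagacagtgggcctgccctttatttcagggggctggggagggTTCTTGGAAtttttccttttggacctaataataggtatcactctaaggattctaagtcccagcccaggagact

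The libraries held between 16931607 and 33850245 counts on genes, and all 42 genes passed the filter on low counts, which left 13966 genes. Levels are CPM, that is counts per library size after TMM normalization, with factors between 0.984 and 1.019. A gene is called where the edgeR quasi-likelihood test of BI against vehicle, adjusted by Benjamini and Hochberg over these genes, reached an adjusted p of 0.05 or lower. Nothing in the labels names a batch. The p values set the difference between the groups against the spread of these 9 tumors within their groups. The label was checked against markers. Krt8 and Krt18, keratins of simple epithelium, were abundant (mean 478 and 578 CPM in vehicle tumors), while the epithelial adhesion genes Epcam and Cdh1 were low (2.13 and 19.2 CPM).

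Most interferon-stimulated genes differed little between the groups. Of the 42, 7 were higher in BI tumors (16.7%, against 14.6% of all genes tested) and 1 was lower (2.38%, against 14.1%). The 7 were Iigp1, Irf7, Mx1, Dhx58, Oas2, Trim30a and Zbp1, and the 1 was Isg20. The share called higher was thus near the background. The median log2 fold change of the 42 genes was 0.08, within a range from -0.52 to 0.58, and that of all genes tested was -0.00. In 5 genes (Iigp1, Irf7, Dhx58, Mx1 and Trim30a) every BI tumor lay above every vehicle tumor, and in Isg20 every BI tumor lay below, against 14.1% and 14.0% of all genes tested. None passed the cutoffs that the study applied, an unadjusted p of at most 0.05 with a 1.5-fold change, which 9.59% of all genes passed upward and 3.57% downward. At an unadjusted p of at most 0.05 alone, 9 of the 42 were higher, against 20.5% of all genes tested, and 3 were lower, against 20.3%. For 29 of the 34 genes that were not called, the 95% interval of the log2 fold change, which is not adjusted for the number of genes, excluded a 1.5-fold change in either direction. The interval reached a 1.5-fold rise in Ifit1, Ifit3 and Ifi44 and a 1.5-fold fall in Rsad2 and Cmpk2. The number called higher changed when a single vehicle tumor was left out. It was 3 without vehicle 2, 4 without vehicle 1 and 6 without vehicle 3. In these settings 10.7%, 10.4% and 9.43% of all genes tested were called higher.

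**Figure D1:**
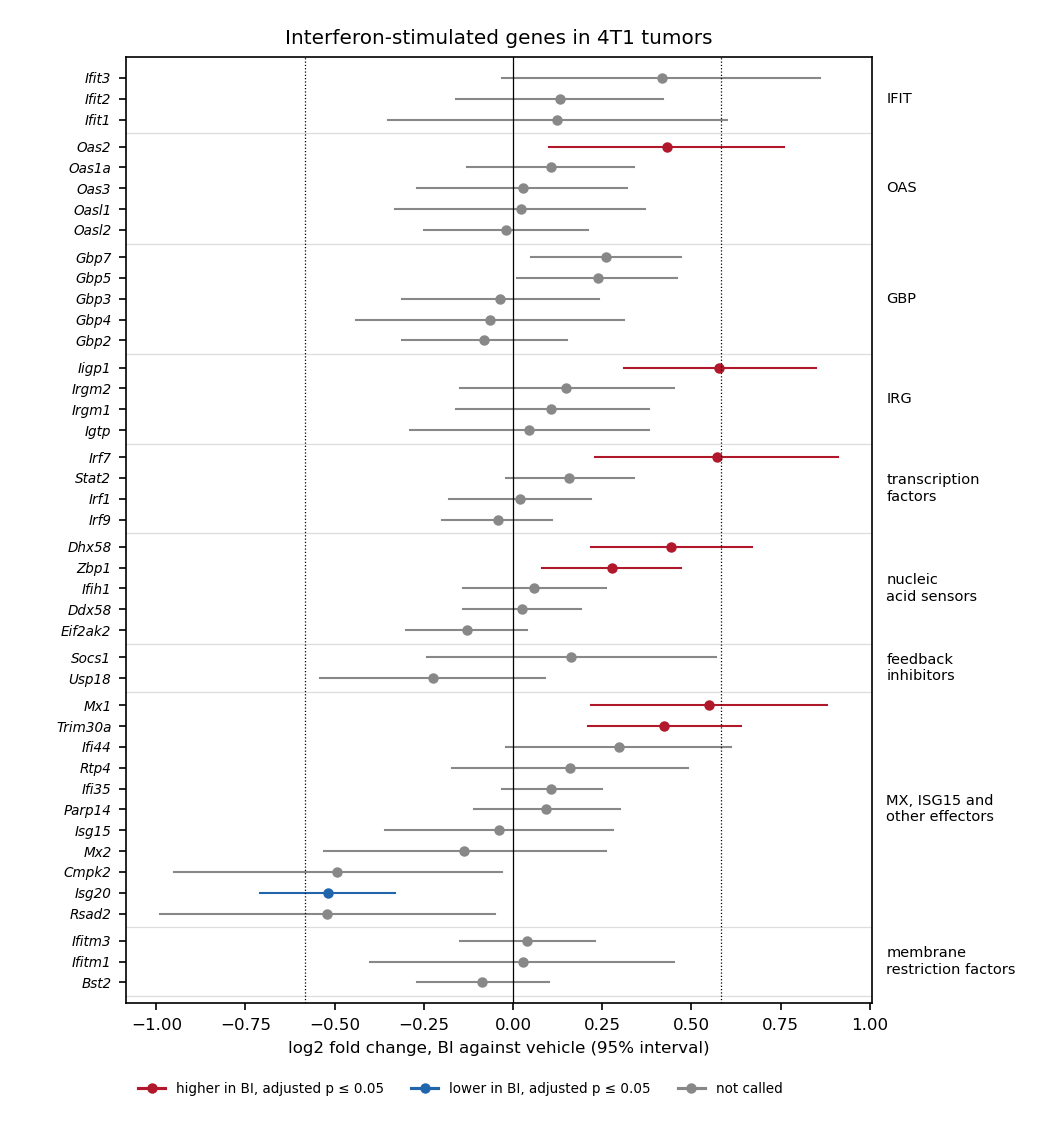
Log2 fold change (BI against vehicle, x axis) of the 42 interferon-stimulated genes, grouped by role, with the 95% interval as a line and dotted lines at a 1.5-fold change. Red marks the 7 genes called higher, blue the 1 called lower, and all 42 estimates lie between -0.52 and 0.58.

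In the IFIT family, whose proteins bind viral RNA, no gene was called. Ifit1 measured 19.2, 31.5 and 34.8 CPM in the vehicle tumors, and between 19.3 and 40.4 CPM (median 33.3) in the BI tumors. The groups overlapped almost entirely, and the log2 fold change of 0.12 had a 95% interval from -0.35 to 0.60. Ifit3 showed the largest difference of the family, from 9.81, 11.0 and 12.5 CPM to between 8.96 and 21.0 CPM (median 14.9). Of the 6 BI tumors 5 lay above all vehicle tumors and 1, BI 5, below them, with a log2 fold change of 0.42 ± 0.20 (SE, adjusted p = 0.145). Ifit3 shares 51.5% of its 50-base words with its near copy Ifit3b, and the reads that fit both were left out by the authors' alignment, which can understate its level. Ifit2 differed by 0.13 on the log2 scale (adjusted p = 0.486).

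Among the OAS genes Oas2 was called and the other 4 were not. Oas2, which makes 2′-5′ oligoadenylates from double-stranded RNA, measured 27.7, 26.9 and 25.1 CPM in vehicle tumors and between 25.7 and 43.7 CPM (median 35.6) in BI tumors. All BI tumors but BI 6 were above the vehicle tumors, and the fold change was 1.35 (log2 0.43 ± 0.15, adjusted p = 0.0496). This call was lost in 8 of 16 alternatives, among them each one that left out a vehicle tumor, where the adjusted p reached 0.159. Oasl2, an OAS-like protein and the highest of the family per length, measured 107, 113 and 120 CPM in vehicle tumors and between 92.8 and 130 CPM in BI tumors. Its interval, from -0.25 to 0.21, was narrow. Oas1a, Oas3 and Oasl1 differed by 0.11, 0.03 and 0.02 on the log2 scale, and Oas1a shares 57.1% of its 50-base words with Oas1g.

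The GBP genes, large GTPases induced strongly by interferon gamma, were more abundant than the IFIT genes (24.5 to 153 against 5.56 to 10.8 CPM per kilobase in vehicle tumors), and none was called. Gbp2, the highest per length, measured 406, 316 and 407 CPM in vehicle tumors and between 312 and 408 CPM (median 354) in BI tumors. The groups covered the same range, and the log2 fold change was -0.08 (interval from -0.31 to 0.15). Gbp7 showed the largest difference, from 269, 205 and 284 CPM to between 274 and 325 CPM (median 309). Of its BI tumors 5 lay above all vehicle tumors, with a fold change of 1.20 (log2 0.26 ± 0.096, adjusted p = 0.0601), and it passed the threshold in 5 of 16 alternatives. Gbp5, which promotes inflammasome activation, differed by 0.24 on the log2 scale (adjusted p = 0.102). Gbp3 and Gbp4 differed by -0.04 and -0.07, and Gbp4 had the widest spread, from 202 to 360 CPM among vehicle tumors alone.

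Of the IRG genes only Iigp1 was called. Iigp1 (Irga6), an effector GTPase that loads onto the vacuole of Toxoplasma, measured 267, 223 and 330 CPM in the vehicle tumors and between 339 and 479 CPM (median 406) in the BI tumors. It was above all vehicle tumors in 6 of 6 BI tumors, from 273 ± 53.7 (SD, n = 3) to 408 ± 45.5 CPM (SD, n = 6), and the fold change was 1.49 (log2 0.58 ± 0.12, adjusted p = 0.00495). This was the largest rise of the 42 genes. Irgm1, Irgm2 and Igtp, the regulatory IRG proteins that hold the effectors inactive on the cell's own membranes, differed by 0.11, 0.15 and 0.05 on the log2 scale. Their highest vehicle tumor, vehicle 3, exceeded 5 of the 6 BI tumors in each of these genes.

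By group means the type I and type II families showed the same small difference. Of the 9 GBP and IRG genes 1 was called higher (11.1%) and the median log2 fold change was 0.11, and of the 8 IFIT and OAS genes 1 was called higher (12.5%) and the median was also 0.11. Over all genes tested 14.6% were called higher and the median was -0.00. Averaged over genes, the log2 level of GBP and IRG was 7.71, 7.32 and 7.85 in vehicle tumors and lay between 7.52 and 8.01 in BI tumors, a difference of means of 0.14. The IFIT and OAS level was 4.81, 4.89 and 4.95 in vehicle tumors and lay between 4.65 and 5.34 in BI tumors, again a difference of 0.14. Both differences were smaller than the range of the BI tumors (highest minus lowest), 0.49 for GBP and IRG and 0.69 for IFIT and OAS. For GBP and IRG the SD was 0.276 in vehicle and 0.171 in BI tumors. For IFIT and OAS it was 0.0716 and 0.251. The gap between the families was 2.74 in both groups on the log2 scale (SD within groups 0.256).

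**Figure D2:**
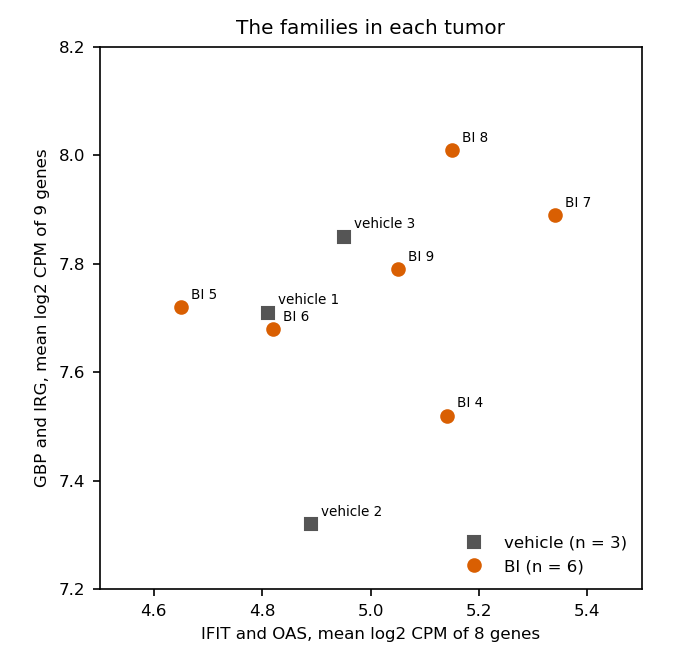
Mean log2 CPM of the 8 IFIT and OAS genes (x axis) and of the 9 GBP and IRG genes (y axis) in each tumor, squares for vehicle (n = 3) and circles for BI (n = 6). Vehicle 2 is lowest on the y axis (7.32), BI 5 lowest on the x axis (4.65), and the groups overlap on both.

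The families differed in which tumors were lowest within each treatment, and among BI tumors also in which were highest. Among vehicle tumors vehicle 2 was lowest and vehicle 3 highest in 9 of 9 GBP and IRG genes. In the IFIT genes vehicle 1 was lowest in 3 of 3, while vehicle 3 was again highest in 3 of 3. Among the OAS genes vehicle 1 was highest in 3 of 5 and lowest in 1. Among BI tumors BI 4 was lowest in 8 of 9 GBP and IRG genes and in 0 of 8 IFIT and OAS genes, and BI 8 was highest in 8 of 9 GBP and IRG genes. BI 5 was lowest in 6 of 8 IFIT and OAS genes and BI 7 highest in 7 of 8. Genes of 1 tumor are read from the same library and are not independent, so these counts describe the tumors. Ifng, the gene of interferon gamma, was also lowest in BI 4 among the BI tumors (2.83 CPM, against 4.17 to 6.61 CPM in the other 5), whereas vehicle 2 was not lowest for Ifng (2.68 CPM, against 2.25 and 2.94).

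**Figure D3:**
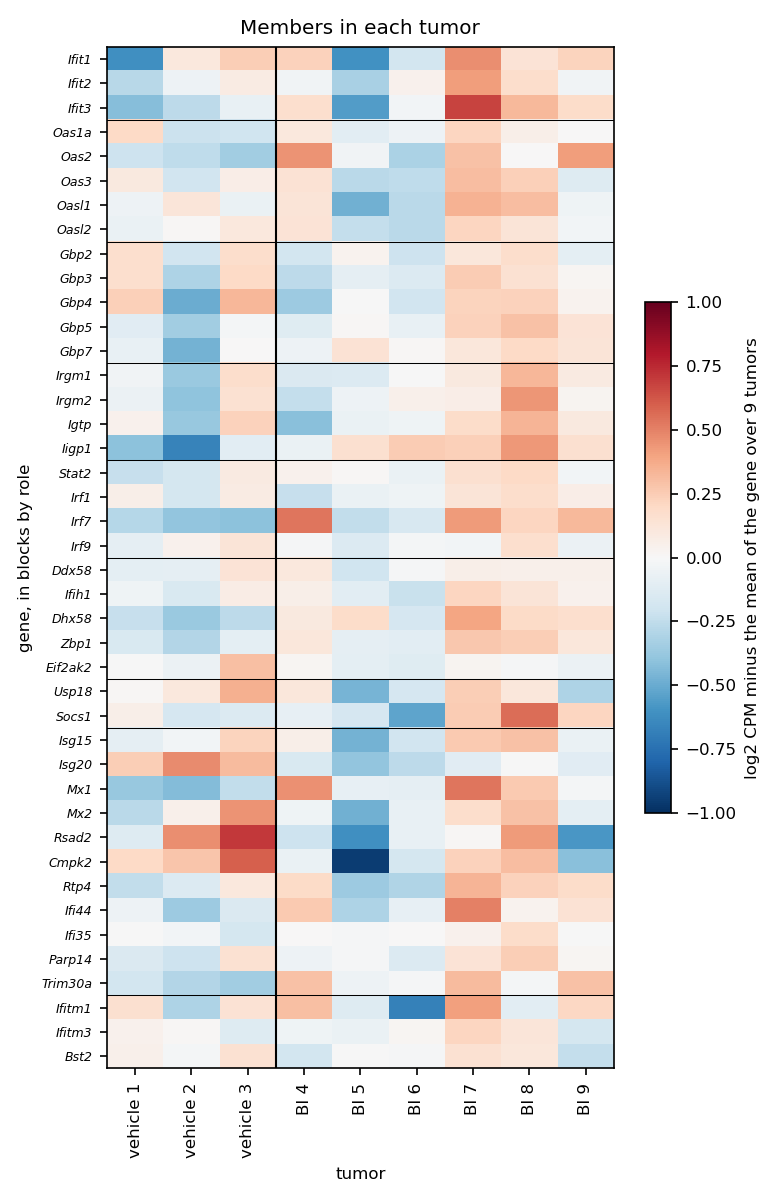
Level of each of the 42 genes (rows, in blocks by role) in each of the 9 tumors (columns), as log2 CPM minus the mean of the gene over all tumors, on a scale from -1 to 1. The GBP and IRG rows are blue in vehicle 2 and BI 4, the IFIT and OAS rows in BI 5, and the vehicle and BI columns (left and right of the black line) do not separate in most rows.

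Among the transcription factors Irf7 was called and Stat2, Irf1 and Irf9 were not. Irf7, the factor that amplifies type I interferon production and is constitutively high in plasmacytoid dendritic cells, measured 85.9, 79.3 and 78.5 CPM in vehicle tumors and between 88.2 and 151 CPM (median 126) in BI tumors. All BI tumors lay above the vehicle tumors, BI 5 and BI 6 only narrowly, with a fold change of 1.49 (log2 0.57 ± 0.15, adjusted p = 0.0168). Without vehicle 2 or vehicle 3 the call was lost, and the adjusted p reached 0.0688. The summed markers of plasmacytoid dendritic cells moved with Irf7 across BI tumors: they were 20.7, 16.8, 15.4 and 13.7 CPM in BI 4, BI 7, BI 9 and BI 8, where Irf7 was 151, 140, 131 and 121 CPM, and 10.8 and 7.24 CPM in BI 5 and BI 6, where Irf7 was 88.2 and 93.3 CPM. A similar order was seen in Oas2, with 43.7, 39.1, 42.7 and 32.1 CPM in BI 4, BI 7, BI 9 and BI 8. Oas2 was 31.2 and 25.7 CPM in BI 5 and BI 6. Iigp1, by contrast, was lowest in BI 4 (339 CPM). Of the 7 plasmacytoid dendritic cell markers 3 were called higher. Ly6d, on the same list, ran the other way, with 0.236 CPM in BI 4 and 1.59 CPM in BI 6. The summed markers of BI 6 lay within the range of the vehicle tumors, 5.86 to 8.66 CPM, whereas its Irf7 did not. The part of these cells in the Irf7 result was not tested. An exon of Irf7 overlaps an exon of Phrf1 on the other strand, and the sources used here do not say whether counting used the strand.

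Irf1, an early target of interferon gamma and the highest of these factors per length, measured 326, 278 and 332 CPM in vehicle tumors and between 268 and 355 CPM (median 316) in BI tumors. The groups overlapped, with a log2 fold change of 0.02 and an interval from -0.18 to 0.22. Stat2 and Irf9, components of ISGF3, differed by 0.16 (adjusted p = 0.179) and -0.04 (adjusted p = 0.701), and Irf9 has an exon that overlaps Rnf31 on the same strand.

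The sensors of foreign nucleic acid divided into 2 genes called higher and 3 not called. Dhx58 (LGP2), which modulates the RNA sensors RIG-I and MDA5, measured 26.9, 24.5 and 26.4 CPM in vehicle tumors and between 28.1 and 41.5 CPM (median 35.7) in BI tumors, without overlap. The fold change was 1.36 (log2 0.44 ± 0.10, adjusted p = 0.00804). An exon of Dhx58 overlaps an exon of Gm11547 on the other strand, with the same doubt about strand as for Irf7, and such overlaps also occur in Irf1, Oasl1, Ifi35 and Eif2ak2. Zbp1, which senses Z-form nucleic acid and can start necroptosis, measured 123, 112 and 128 CPM in vehicle tumors and between 127 and 165 CPM (median 148) in BI tumors. It was above all vehicle tumors in 5 of 6, with a fold change of 1.21 (log2 0.28 ± 0.090, adjusted p = 0.037), and the call was lost in 7 of the 9 alternatives that left out a tumor, with adjusted p values up to 0.148. Ddx58 (RIG-I) and Ifih1 (MDA5) differed by 0.02 and 0.06 on the log2 scale, and Eif2ak2, the kinase PKR, by -0.13 (adjusted p = 0.236).

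The feedback inhibitors were not called. Usp18, which removes ISG15 and blocks the type I receptor, measured 25.8, 27.5 and 32.7 CPM in vehicle tumors and between 18.5 and 30.3 CPM (median 25.1) in BI tumors, with a log2 fold change of -0.22 (interval from -0.54 to 0.09). Of its BI tumors 3 lay below all vehicle tumors and none above. Socs1, the inhibitor of JAK kinases, differed by 0.16 (interval from -0.24 to 0.57).

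The effectors held 2 genes called higher and the single gene called lower. Mx1, a dynamin-like GTPase against RNA viruses, measured 10.5, 10.1 and 11.5 CPM in vehicle tumors and between 12.8 and 19.8 CPM (median 15.0) in BI tumors, without overlap. The fold change was 1.46 (log2 0.55 ± 0.15, adjusted p = 0.0188), and the call was lost without vehicle 1 or vehicle 2 (adjusted p up to 0.0695). Trim30a, a feedback regulator of Toll-like receptor signaling whose promoter and its response element are printed above, measured 85.6, 79.1 and 76.1 CPM in vehicle tumors and between 93.7 and 121 CPM (median 108) in BI tumors. The groups did not overlap, and the fold change was 1.34 (log2 0.42 ± 0.098, adjusted p = 0.0078).

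Isg20, an exonuclease that degrades viral RNA, was the exception in direction. It measured 34.8, 40.6 and 36.5 CPM in vehicle tumors and between 22.3 and 29.2 CPM (median 26.7) in BI tumors, so that all BI tumors lay below all vehicle tumors. The mean fell from 37.3 ± 2.98 (SD, n = 3) to 26.1 ± 2.41 CPM (SD, n = 6), with a log2 fold change of -0.52 ± 0.087 (adjusted p = 0.00118), the smallest adjusted p of the 42 genes. Rsad2 (viperin) and Cmpk2, neighbors on chromosome 12 and partners in making an antiviral nucleotide, had log2 fold changes of similar size, -0.52 and -0.49, but wider errors (SE 0.22 and 0.21, adjusted p = 0.093 and 0.102). Rsad2 ranged from 38.6 to 68.9 CPM among vehicle tumors and from 27.6 to 56.8 CPM among BI tumors, and passed the threshold only without vehicle 1 or without BI 8. The summed neutrophil markers were also lower in BI tumors, from between 523 and 752 to between 221 and 372 CPM, without overlap. This sum was mostly S100a8 and S100a9. Of the 6 neutrophil markers tested 4 were called lower, while Csf3r (log2 -0.24) and Mmp8 (log2 0.21) were not called. The part of neutrophils in these values was not tested.

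Isg15, the ubiquitin-like protein attached to other proteins after interferon exposure and the highest effector per length, measured 34.2, 35.8 and 42.6 CPM in vehicle tumors and between 26.3 and 44.7 CPM (median 36.5) in BI tumors. The log2 fold change was -0.04 (interval from -0.36 to 0.28). The remaining effectors Mx2, Rtp4, Ifi44, Ifi35 and Parp14 had log2 fold changes between -0.14 and 0.30 and none was called. The membrane restriction factors did not differ beyond their spread either. Ifitm3, which blocks viral entry and was the most abundant of all 42 genes per length, measured 534, 523 and 474 CPM in vehicle tumors and between 458 and 600 CPM (median 514) in BI tumors. Its interval ran from -0.15 to 0.23, and Ifitm1 differed by 0.03. Bst2 (tetherin), which holds budding virus at the cell surface, measured 101, 95.9 and 108 CPM in vehicle tumors and between 82.5 and 108 CPM (median 96.8) in BI tumors, with a log2 fold change of -0.09 (interval from -0.27 to 0.10).

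**Figure D4:**
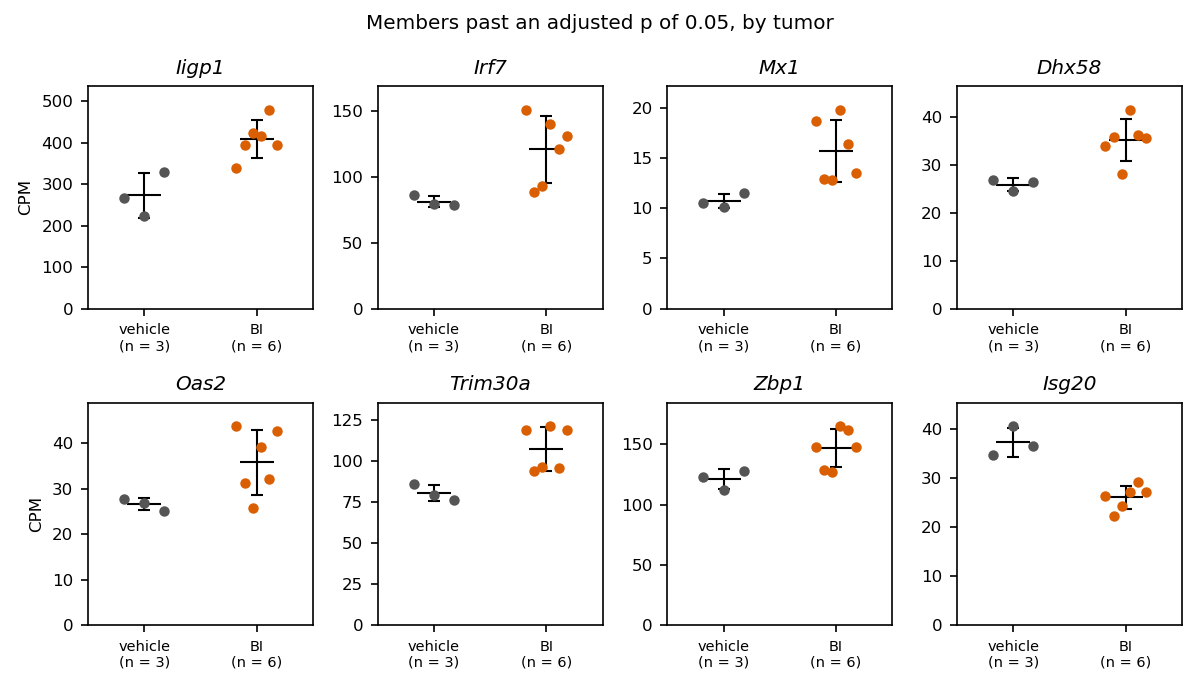
Level in CPM (y axis, from 0) of the 8 called genes in each tumor, with the mean and SD of the vehicle (n = 3) and BI (n = 6) groups. The groups are separate in Iigp1, Irf7, Mx1, Dhx58, Trim30a and Isg20 and overlap in Oas2 and Zbp1.

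Each gene was also compared by an exact two-sided permutation test, with 84 possible assignments of the treatment. The permutation p was 0.0238, the smallest possible, for the 6 called genes without overlap (Iigp1, Irf7, Mx1, Dhx58, Trim30a and Isg20). Groups that do not overlap always give this p, so for these genes it only restates the separation. Of all genes tested, 14.1% were separated upward and 14.0% downward. The permutation p values are not adjusted for the number of genes. The exact p was 0.0476 for Zbp1 and 0.0714 for Oas2, and it was also 0.0476 for Gbp7 and Ifi35, which were not called. Iigp1, Dhx58, Trim30a and Isg20 were called in all 16 alternatives. Of the 3 called genes with a RefSeq promoter, Trim30a held a response element, Isg20 a gamma-activated site and Irf7 neither, beside 20 and 11 of the 29 genes that were not called.

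The signals upstream of these genes were read from lists of ligands, receptors and transducers, whose counts stand beside 14.6% of all genes called higher and 14.1% called lower. Ifng was the one ligand that passed the filter, with 2.25, 2.68 and 2.94 CPM in vehicle tumors and between 2.83 and 6.61 CPM in BI tumors. The mean rose from 2.62 to 4.98 CPM (log2 0.91 ± 0.25, adjusted p = 0.0183), and BI 4 overlapped with vehicle. The markers of T cells and NK cells rose as well (8 of 9 and 4 of 5 tested), and their sums went from between 76.8 and 84.7 to between 139 and 201 CPM for T cells and from between 15.9 and 21.3 to between 36.2 and 50.0 CPM for NK cells. In bulk tumor RNA, more cells of a type and more RNA per cell cannot be told apart. Ifnb1 was near the floor, with 0 to 11 counts per tumor and 40 in all, and Ifna2, Ifnab and Ifne had 1, 1 and 8 counts over all tumors. The other 16 ligands of the list were not analysed here.

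Of the 6 receptor genes 3 were called higher and none lower. Ifngr1, the ligand-binding chain for interferon gamma, rose from 66.6 ± 5.67 to 94.6 ± 8.82 CPM (log2 0.51, adjusted p = 0.0012). Il10rb, shared by the receptors of interferon lambda and IL-10, rose by 0.32 (adjusted p = 0.00603) and Ifnar2 by 0.15 (adjusted p = 0.0358). Ifnar1 and Ifngr2 differed by 0.13 and 0.09 and Ifnlr1 was below 1 CPM in both groups. Of the 9 transducers 5 were called higher and 1 lower: Irf5 rose by 0.71, Irf8 by 0.45, Tyk2 by 0.42 and Irf2 by 0.21 on the log2 scale, while Jak2 fell by 0.41 (adjusted p = 0.00102), from 485 to 365 CPM.

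Of 12 sensor adaptors and kinases 6 were called higher and none lower, led by the endosomal receptors Tlr9 (from 10.8 to 25.6 CPM, log2 1.25, adjusted p = 0.000137) and Tlr7 (log2 0.81) and by the adaptors Myd88 (0.46) and Sting1 (0.32). Of 7 signaling inhibitors outside the 42 genes, Ptpn1, Ptpn6 and Cish were called higher. Macrophage markers rose together with these genes (8 of 9, sum from between 1660 and 2240 to between 3270 and 4090 CPM), as did Ptprc, the pan-leukocyte gene (from between 167 and 183 to between 245 and 333 CPM), and their part in these results was not tested.

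Other targets of each pathway were counted in the same way, beside the 14.6% of all genes called higher and the 14.1% called lower. Of 12 other GBP and IRG genes tested 3 were called higher, Gbp8 (log2 0.92, adjusted p = 0.000432), Gm4951 (0.74) and F830016B08Rik (0.59), and Gbp9 was called lower (-0.34). Of 10 other targets of interferon gamma 3 were called higher and 2 lower. Ciita, the master regulator of MHC class II, rose from 21.3 to 47.2 CPM (log2 1.14, adjusted p = 0.000749) and the T cell attractant Cxcl9 from 179 to 302 CPM (log2 0.76, adjusted p = 0.0031), and Batf2 rose by 0.50. Nos2, the inducible nitric oxide synthase, fell by 0.61 and Ido1 by 0.54. Of 38 other type I targets 8 were called higher (21.1%) and 3 lower (7.89%), with a median log2 fold change of 0.08. Slfn5 (0.72), Trex1 (0.61), Znfx1 (0.47) and Epsti1 (0.63) had the smallest p among those higher, and Phf11d (-0.37), Ifit1bl2 (-1.17) and Oas1b (-0.27) were lower.

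**Figure D5:**
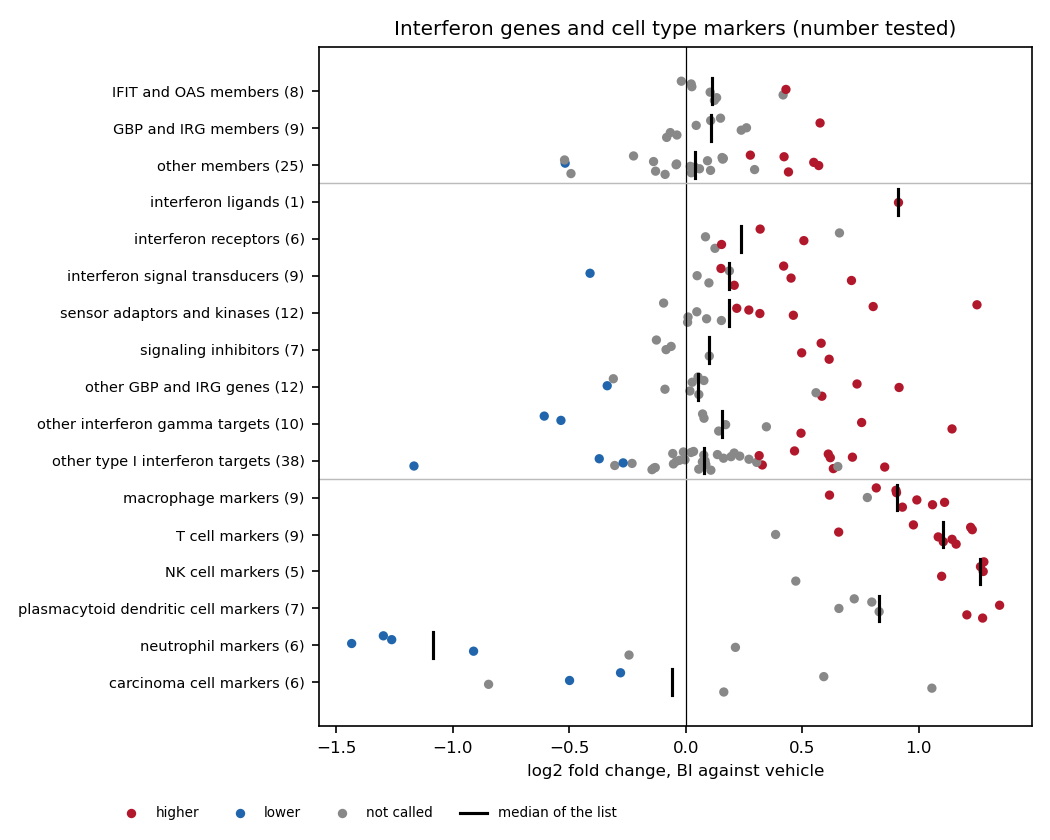
Log2 fold change (BI against vehicle, x axis) of each tested gene in the member families, the context lists and the cell type marker lists, with the number tested in parentheses and the median as a black bar. Red points were called higher and blue lower: medians of the member families lie at 0.11, 0.11 and 0.04, those of macrophage, T cell and NK cell markers at 0.91, 1.11 and 1.27, and that of neutrophil markers at -1.09.

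Leukocyte markers differed more in the same libraries. The median log2 fold change was 0.91 for macrophage, 1.11 for T cell, 1.27 for NK cell, 0.83 for plasmacytoid dendritic cell (3 of 7 called higher) and 1.01 for conventional dendritic cell markers (5 of 7), against 0.08 for the 42 interferon-stimulated genes. B cell markers were low (sums from 4.52 to 11.2 CPM, with 2 of 5 markers at 0 in some tumor, and 2 of 4 called higher), and 2 of 5 endothelial markers were called higher. Carcinoma markers summed to between 952 and 1180 CPM in vehicle tumors and to between 747 and 956 CPM in BI tumors (2 of 6 called lower). This sum was mostly Krt8 and Krt18, the 2 called lower. The list itself was divided, with 3 log2 fold changes above 0, 3 below and a median of -0.06. Epcam was 2.08-fold higher but not called (adjusted p = 0.0987). Neutrophil markers, 4 of 6 called lower, were the list that fell furthest.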

How the data were processed

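RNA of 9 4T1 tumors was analysed from the deposited counts. The authors aligned paired stranded reads to mm9 with STAR, kept reads with a single alignment, counted with QuasR per RefSeq gene, and deposited raw counts and gene lengths (in bases, used here as CPM per kilobase to order genes within a role). Groups came from the agent in the labels. Entrez identifiers were matched to RefSeq symbols, and mm9 positions came from GENCODE. edgeR 4.0.16 in R 4.3.3 was used with TMM, filterByExpr (minimum count 10, minimum total 15) and the quasi-likelihood F test without covariates, with Benjamini-Hochberg adjustment over all 13966 genes. Log2 CPM used a prior count of 2. The test was checked on simulated counts.

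Total counts of 16931607 to 33850245 per tumor make 1 count worth 0.0295 to 0.0591 CPM, and a floor of 3 counts 0.0886 to 0.177 CPM, for counting error only. Paralogs were compared by shared 50-base words of GENCODE transcripts. The 42 genes, the lists and the tests were chosen with earlier results of these data known. Values by tumor are given for called genes and, per role, for the gene highest per length and the gene with the largest log2 fold change in size; of the other lists, at most 4 called genes in each direction with the smallest p, and ligands and receptors that passed the filter. The alternatives were RLE factors, library size alone, no filter, at least 1 CPM in 3 tumors, DESeq2 1.42.0, limma-voom (limma 3.58.1), the likelihood ratio test, a 2-fold limit in the cutoffs of the study, and leaving out each tumor. Of the genes on the other lists, 1 is not reported here.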

Additional observations from a re-analysis of the deposited data

Results flagged for a closer look

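Ifi35, which encodes an interferon-induced leucine zipper protein, was set apart by 1 tumor. BI 8 held 51.7 CPM, while the other BI tumors lay between 45.3 and 46.9 CPM, and its gap to the nearest tumor was 0.739 of the range of the group. Among the 42 genes and the 2 family levels examined for such tumors (44 groups of 6 BI tumors), this was the 1 case found. How often chance alone gives such a case was not tested, so no conclusion is drawn from it. The groups share the same tumors and are not independent. BI 8 was also the highest BI tumor in 8 of 9 GBP and IRG genes.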

How the results depend on the processing

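Iigp1, Dhx58 and Trim30a (higher) and Isg20 (lower) kept their calls in all 16 alternatives. The number of genes called higher, 7, was 6 to 8 under the 7 alternatives of scaling, filter or test and 3 to 9 when 1 tumor was left out (3 without vehicle 2, 4 without vehicle 1), and the number called lower was 1 to 2, with 2 (Rsad2 added) without vehicle 1 or BI 8. Of the calls, Oas2 was lost in 8 alternatives, Zbp1 in 7, Irf7 in 2 and Mx1 in 2. The GBP and IRG count, 1, was 2 with DESeq2, limma-voom and the likelihood ratio test, where Gbp7 was added, and 1 to 2 over the tumors left out (2 without vehicle 3 or BI 4). The IFIT and OAS count, 1, was 0 with library size alone and with limma-voom, and 0 to 2 over the tumors left out (2 without BI 5). The adjusted p of Oas2 was at most 0.0582 with other scaling, filter or test and reached 0.159 without vehicle 3. The difference between the families' median log2 fold changes, -0.01, lay between -0.14 and 0.10 over the tumors left out. The sign changed for 15 genes, none called and all within 0.14 of 0 on the log2 scale; over the tumors left out their log2 fold changes ran Ifit1 -0.09 to 0.30, Oas3 -0.06 to 0.08, Oasl1 -0.05 to 0.11, Oasl2 -0.07 to 0.03, Gbp3 -0.18 to 0.05, Gbp4 -0.28 to 0.09, Irgm1 -0.03 to 0.24, Igtp -0.11 to 0.18, Irf1 -0.06 to 0.07, Irf9 -0.10 to 0.01, Ddx58 -0.02 to 0.11, Isg15 -0.10 to 0.06, Mx2 -0.29 to 0.08, Ifitm1 -0.11 to 0.14 and Ifitm3 -0.01 to 0.08. With limma-voom that of Ifitm1 was 0.00. The cause of these changes was not tested. No paired analysis was possible because the tumors of the 2 groups share no replicate number. All genes called higher were 2040 with 9 tumors and 1332 to 2026 with 8. All genes called lower were 1973 with 9 tumors and 1172 to 1980 with 8. Among the 42 genes the number called higher fell in most of these settings but rose to 9 without BI 5. For genes below about 1 CPM, such as Ifnb1, depth limits any comparison.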

Other observations

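Scaled to gene length, the levels of the 42 genes in vehicle tumors ran over a wide range. Ifitm3 was highest with 787 CPM per kilobase, followed by Gbp2 (153), Bst2 (133), Irf1 (92.9), Igtp (91.0), Irgm1 (90.4) and Iigp1 (87.5). Mx2 (3.26), Mx1 (3.60) and Ifit3 (5.56) were lowest. Each of these shares sequence with a close relative, and reads that fit both were not counted. The shared part of the 50-base words was 51.5% for Ifit3 but only 6.71% for Mx2 and 4.77% for Mx1. Ifitm3, the highest gene, shares a larger part than Mx1 or Mx2. The effect of the uncounted reads on these levels was not tested. In BI tumors Iigp1 reached 131 CPM per kilobase and stood between Gbp2 (145) and Bst2 (125). Over all 42 genes, vehicle 3 was the highest vehicle tumor for 29 and vehicle 2 the lowest for 22, and BI 7 and BI 8 were the highest BI tumors for 20 and 19 genes. These are descriptions of levels and of tumors, with no test.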
